A study of Rattus norvegicus with 9 samples.

Results

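The 9 genes described here carry the insulin and insulin-like growth factor (IGF) signal from its ligands to the AKT kinase. They were chosen by gene name from the 30562 genes of the count table: Igf2, Igf1, Igfbp2, Igf1r, Insr, Irs1, Irs2, Pik3r1 and Akt1. Each name belonged to 1 gene ID. RNA was sequenced from the hippocampal region of male Sprague-Dawley rats that were 6 to 8 weeks old on arrival and had 1 week to acclimatize. The control rats (Ctrl, 3 libraries) had no induction of diabetes described. The Model rats (3 libraries) were fed a high-fat diet for 4 weeks and then given 1 intraperitoneal dose of streptozotocin, a toxin of pancreatic beta cells, at 50 mg/kg. Rats whose fasting blood glucose stayed at or above 16.7 mmol/L were taken on through 5 weeks of chronic unpredictable mild stress. The ChryM rats (3 libraries) received chrysophanol, an anthraquinone found in rhubarb, by gavage on 14 consecutive days. That they were model rats follows from the title of the study. The sources used here give neither the dose, the meaning of the final M nor the age at tissue collection. Diet, streptozotocin and stress therefore came together in Model, and their parts cannot be told apart. The labels do not tie a library to an animal, so every p-value reflects the spread between libraries alone, which may be technical.

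Insulin and the IGFs bind receptor tyrosine kinases at the cell surface. The activated receptors phosphorylate IRS adaptor proteins, which recruit phosphoinositide 3-kinase (PI3K) through its regulatory subunit, and the lipid that PI3K makes brings AKT to the membrane. IGF-binding proteins hold IGFs outside the cell and set how much reaches the receptors. In the adult brain, Igf2 RNA is known chiefly from the choroid plexus, the meninges and vessels, and the choroid plexus releases IGF2 into the cerebrospinal fluid.

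The upstream sequences of Igf2, the ligand, and Igfbp2, the binding protein, are shown because these were the members that differed between groups. Each is the 250 bases before an annotated start in RefSeq, build GRCr8, read 5′ to 3′ on the gene's strand. RefSeq lists 2 starts for Igf2, and the counts per gene do not separate them. Capitals mark the GC-box letters GGGCGG or CCGCCC, its reverse complement, which were searched on both strands. The Igf2 windows are chr1:207253981-207254230 for start 1 and chr1:207250476-207250725 for start 2, both on the minus strand. The Igfbp2 window is chr9:81864561-81864810 on the plus strand.
Igf2 start 1: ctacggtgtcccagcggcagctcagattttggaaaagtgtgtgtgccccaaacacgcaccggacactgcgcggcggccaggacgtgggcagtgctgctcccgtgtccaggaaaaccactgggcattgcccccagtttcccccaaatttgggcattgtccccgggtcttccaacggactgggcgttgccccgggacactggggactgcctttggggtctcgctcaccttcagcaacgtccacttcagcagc
Igf2 start 2: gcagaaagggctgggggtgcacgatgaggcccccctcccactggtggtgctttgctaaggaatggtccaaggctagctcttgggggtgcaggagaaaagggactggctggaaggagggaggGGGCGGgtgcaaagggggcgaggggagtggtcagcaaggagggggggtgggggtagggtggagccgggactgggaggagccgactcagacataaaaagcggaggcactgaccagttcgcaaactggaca
Igfbp2: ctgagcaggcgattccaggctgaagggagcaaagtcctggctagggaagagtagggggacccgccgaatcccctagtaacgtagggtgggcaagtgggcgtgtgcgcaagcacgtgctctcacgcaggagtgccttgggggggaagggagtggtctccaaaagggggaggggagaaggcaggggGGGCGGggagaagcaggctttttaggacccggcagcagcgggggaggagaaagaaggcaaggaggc
The second Igf2 window held 1 GC box, 129 bases before the start, and the Igfbp2 window held 1, 66 bases before the start. The first Igf2 window held none. The table had windows for 8 of the 9 members, 9 windows in all, and 5 of these held a GC box, against 30.5% of the 33469 windows listed. The share of G and C in the member windows was 46.8% (Igf1) to 79.6% (Igf1r), against a median of 51.2% over all windows. The GC-box shares were not adjusted for this. The core letters GTAAACA of forkhead (FOXO) motifs, or TGTTTAC on the other strand, were in 1 of the 9, that of Insr, against 3.21% of all. The letters TATAAA, or TTTATA, were in 0 of the 9 and in 12.9% of all. These are matches of letters only, and no binding was measured.

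Library totals ran from 631119 to 866048 counts, and a tested gene had a median of 19 to 27 counts per library, so the depth was low. Of all genes, 7073 had enough counts to test. Of the 9 members, 5 were tested (Igf2, Igfbp2, Irs2, Pik3r1 and Akt1) and 4 were not (Igf1, Igf1r, Insr and Irs1). The tissue label was checked against neuron markers. Slc17a7, the vesicular glutamate transporter of forebrain excitatory neurons, had 351 to 539 counts per library, and Neurod6, a transcription factor of pyramidal neurons, had 46 to 74. Prox1, the granule-cell factor of the dentate gyrus, had 0 to 5 counts, Zbtb20 had 0 to 3, and Spink8, a marker of hippocampal pyramidal cells, had 0 in every library. Fibcd1 and Wfs1, markers of CA1 pyramidal neurons, had 44 to 64 and 13 to 76 counts. Of the hippocampal markers named here, Fibcd1 and Wfs1 were thus present, while Prox1, Zbtb20 and Spink8 were at or near 0.

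Igf2 and Igfbp2 were the members that differed between groups, and both were lower in Model and in ChryM than in Ctrl. Neither differed detectably between ChryM and Model. Irs2, Pik3r1 and Akt1, the tested members inside the cell, did not pass the test in any comparison. Igf1, Igf1r, Insr and Irs1 had at most 5 counts in any library.

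Igf2 (ENSRNOG00000020369) encodes insulin-like growth factor 2, a growth factor best known from fetal development. It was counted 79, 87 and 96 times in Ctrl 1, 2 and 3, 6, 5 and 8 times in Model 1, 2 and 3, and 8, 10 and 11 times in ChryM 1, 2 and 3. Every Ctrl library was far above every Model and ChryM library, and the Model and ChryM counts met at 8. In CPM (counts scaled to library size and composition), Ctrl had 112 ± 20.8, Model 9.78 ± 1.24 and ChryM 12.3 ± 2.63 (SD, n = 3 each). The ratio of Ctrl to Model was 11.3 (95% interval 7.07 to 19.0), and that of Ctrl to ChryM was 9.09 (6.18 to 13.8). These and later intervals of ratios come from exact binomial limits on the summed counts and cover counting error only. Igf2 fell by 3.47 ± 0.34 (SE) on the log2 scale in Model against Ctrl (adjusted p = 4.71e-28, edgeR quasi-likelihood test with Benjamini-Hochberg adjustment over all genes tested). It fell by 3.17 ± 0.28 in ChryM against Ctrl (adjusted p = 1.01e-28, same test). Between ChryM and Model the log2 difference was 0.30 ± 0.43 (adjusted p = 0.774, same test), and the ratio of ChryM to Model was 1.24 (0.671 to 2.34). The upper bound of 2.34 lies below the 11.3 by which Ctrl exceeded Model. Igf2 reached the minimum for testing in 3 of 3 Ctrl, 0 of 3 Model and 1 of 3 ChryM libraries, so it was tested almost wholly through the group in which it was high. In RefSeq it overlaps the microRNA gene Mir483 and the locus LOC102548568, and reads shared with these cannot be separated.

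Igfbp2 (ENSRNOG00000016957) encodes insulin-like growth factor binding protein 2, an abundant IGF carrier of brain and cerebrospinal fluid. Its counts were 72, 64 and 67 in Ctrl, 15, 10 and 16 in Model and 14, 13 and 11 in ChryM. Ctrl was again above both other groups without overlap, while the Model and ChryM counts overlapped. Its CPM was 86.5 ± 8.82 in Ctrl, 21.2 ± 3.76 in Model and 16.0 ± 1.42 in ChryM (SD, n = 3 each). Ctrl exceeded Model by a ratio of 4.04 (95% interval 2.88 to 5.80) and ChryM by 5.38 (3.79 to 7.82). On the log2 scale Igfbp2 fell by 2.01 ± 0.25 in Model against Ctrl (adjusted p = 2.17e-14, edgeR) and by 2.42 ± 0.26 in ChryM against Ctrl (adjusted p = 2.50e-19, edgeR). The log2 difference of ChryM from Model was -0.41 ± 0.32 (adjusted p = 0.537, edgeR), a ratio of 0.752 (0.471 to 1.20). All 9 libraries reached the minimum for testing. No gene in the RefSeq table overlaps Igfbp2.

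**Figure D1:**
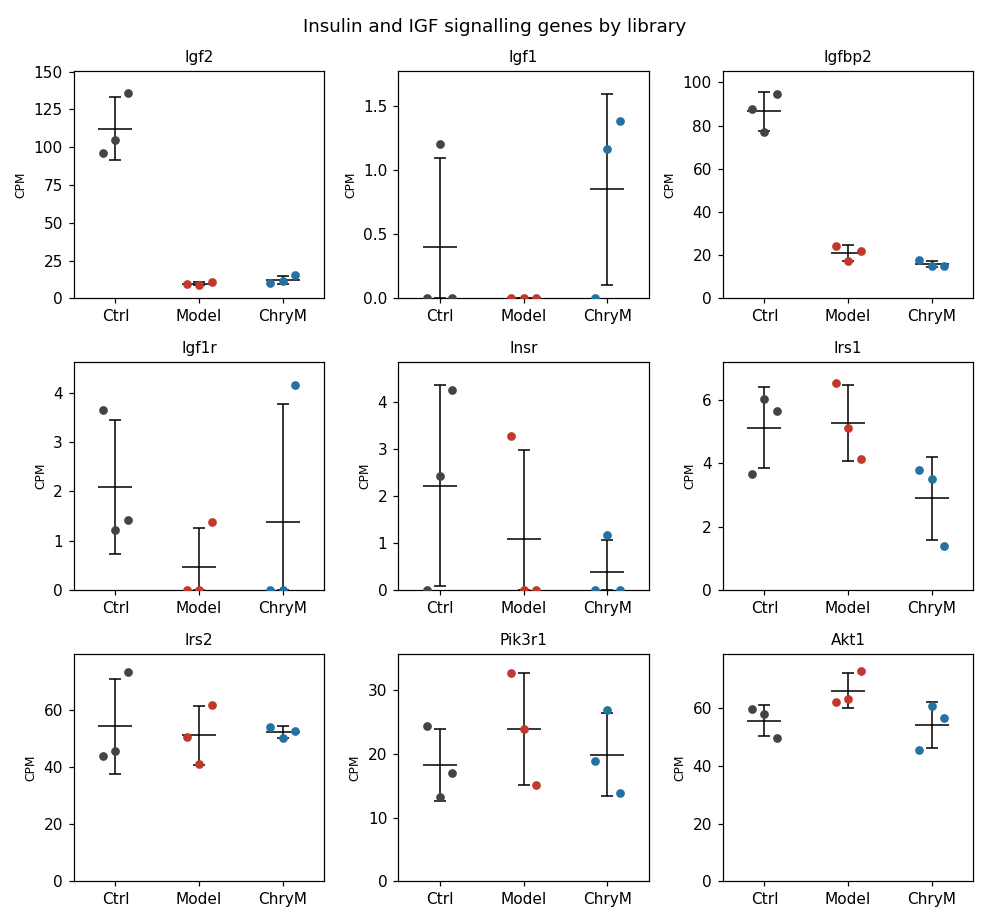
CPM of the 9 genes in each library (points; replicates 1 to 3 from left to right), with the group mean (long bar) and SD (whiskers, cut at 0). Each panel has its own axis from 0; the Ctrl points of Igf2 and Igfbp2 lie above all Model and ChryM points, and Igf1, Igf1r, Insr and Irs1 rest on 0 to 5 counts per library.

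In Model against Ctrl, 0 members were higher and 2 were lower (Igf2 and Igfbp2), against 12.4% of all tested genes changed (7.04% higher and 5.39% lower). In ChryM against Ctrl, 0 were higher and the same 2 were lower, against 18.8% of all (9.83% higher and 8.96% lower). These comparisons share the Ctrl libraries. In ChryM against Model, 0 of the 5 tested members passed edgeR's test, 0 had an unadjusted p under 0.05 and DESeq2 also called 0, against 8.27% of all genes (3.86% higher and 4.41% lower). The median log2 fold change of the tested members was -0.04 in Model against Ctrl (-0.02 over all genes), -0.21 in ChryM against Model (0.00 over all) and -0.04 in ChryM against Ctrl (-0.01 over all).  Scaling by library totals in place of TMM (trimmed mean of M values) changed the split of all called genes from 498 higher and 381 lower to 276 and 655 in Model against Ctrl, and moved the median gene to -0.14. The split went from 273 and 312 to 373 and 252 in ChryM against Model, and from 695 and 634 to 520 and 819 in ChryM against Ctrl. Igf2 and Igfbp2 stayed lower than in Ctrl under every scaling tried.

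Summed markers of the choroid plexus, meninges, blood and mural cells of vessels were lower in Model and ChryM than in Ctrl, as were Igf2 and Igfbp2. The same held, by less, for the sums of astrocyte and hippocampal neuron markers, which like all these sums are scaled to library totals. In the TMM-scaled fit, the 8 astrocyte markers had median log2 fold changes of -0.23 in Model and -0.42 in ChryM against Ctrl. The 7 neuron markers tested had -0.03 in both, near the -0.02 and -0.01 over all genes. The lower direction was thus shared by astrocyte markers, while the neuron markers lay near the median gene in that fit. Sums for ependyma, endothelium and microglia overlapped between Ctrl and Model and lay below Ctrl in ChryM. The microglia sums were 158.5 to 185.6 in Ctrl, 158.4 to 180.2 in Model and 106.5 to 128.2 in ChryM. Oligodendrocyte sums are given further below, beside Gab1 and Pik3r2. The summed CPM of the library total of 16 choroid plexus markers was 1787 to 1848 in Ctrl, 34.9 to 51.8 in Model and 82.0 to 102 in ChryM. Without Ttr, the transthyretin gene, the sums were 269 to 293 in Ctrl, 31.7 to 49.2 in Model and 43.9 to 56.3 in ChryM. Much of this remainder was Enpp2, also a gene of oligodendrocytes, at TMM-scaled means of 184, 32.2 and 38.2 CPM in the same order. Of the 16, 9 had no count in Model (Aqp1, Cldn2, F5, Kl, Otx2, Prlr, Slc4a5, Sostdc1 and Tmem72) and 7 had none in ChryM (Aqp1, F5, Folr1, Kl, Otx2, Prlr and Tmem72). The 3 that could be tested, Ttr, Enpp2 and Clic6, all fell in Model and in ChryM against Ctrl (edgeR), and Ttr rose in ChryM against Model. Clic6 reached the minimum for testing in Ctrl libraries alone, so its fall was fixed by that minimum and is a description. The sum of 17 meningeal fibroblast markers was 75.6 to 116 in Ctrl, 36.3 to 41.2 in Model and 26.1 to 50.8 in ChryM. None of the 17 had enough counts to test, with Aldh1a2 and Islr at 0 in Model and Foxd1 at 0 in ChryM. The 4 blood markers in the table summed to 334 to 359 in Ctrl, 65.1 to 84.0 in Model and 99.0 to 107 in ChryM. The ependymal markers summed to 22.0 to 26.0 in Ctrl, 19.0 to 25.7 in Model and 4.90 to 19.5 in ChryM. The endothelial sums were 48.1 to 71.8, 41.2 to 56.9 and 23.3 to 33.5 in the same order, and the mural sums were 65.6 to 69.8, 31.8 to 56.9 and 35.2 to 46.5. Astrocyte markers summed to 1162 to 1355 in Ctrl, 1018 to 1095 in Model and 969 to 1007 in ChryM. Hippocampal neuron markers summed to 1176 to 1337 in Ctrl, 1088 to 1139 in Model and 1099 to 1157 in ChryM. The part of these markers in the differences of Igf2 and Igfbp2 was not tested. In bulk tissue, fewer cells of a type and less RNA per cell cannot be told apart.

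**Figure D2:**
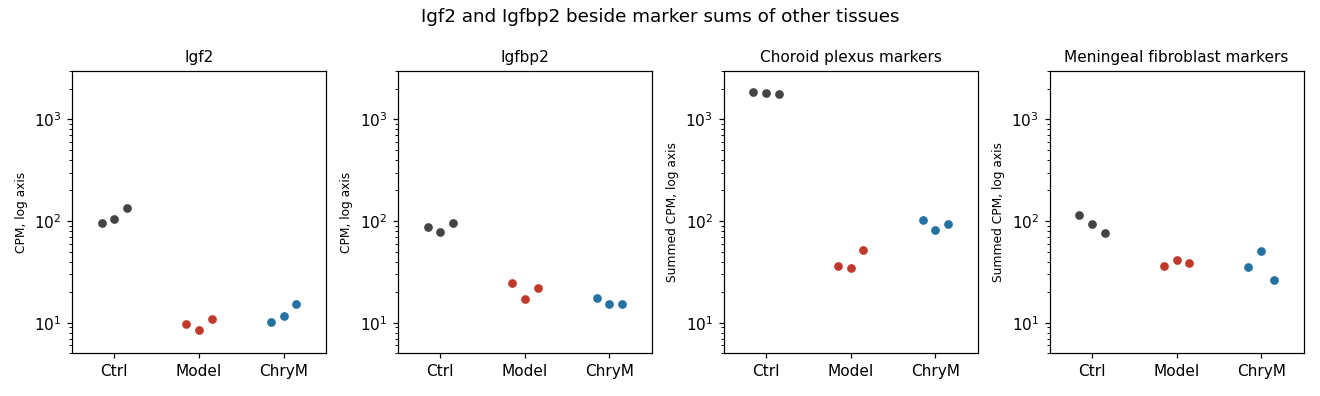
CPM of Igf2 and Igfbp2 and the summed CPM of choroid plexus and meningeal fibroblast markers in each library (points), on log axes with the same limits. In all 4 panels the 3 Ctrl libraries lie above the Model and ChryM libraries; the choroid plexus sum is 1787 to 1848 in Ctrl and 34.9 to 51.8 in Model.

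Igf1, the growth factor made mainly in liver under growth hormone and locally in brain, was close to absent from the counts. It had 1 count in Ctrl 2, 1 each in ChryM 2 and 3, and 0 in the other libraries. A total of 3 counts over a group corresponds to 1.27 CPM in Ctrl, 1.56 in Model and 1.26 in ChryM, and Igf1 was at or under that floor in every group. No fold change is given for it.

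The receptors were also near the floor. Igf1r, the receptor for IGF1 and IGF2, had 3, 1 and 1 counts in Ctrl, 0, 0 and 1 in Model and 0, 0 and 3 in ChryM. The ratio of Model to Ctrl was 0.245, with an interval of 0.00518 to 2.19, and that of ChryM to Model was 2.43 (0.195 to 128). Insr, the insulin receptor, had 0, 2 and 3 counts in Ctrl, 2, 0 and 0 in Model and 0, 1 and 0 in ChryM. Its ratio of Model to Ctrl was 0.490 (0.0466 to 2.99), and its ratio of ChryM to Model was 0.406 (0.00688 to 7.79). The groups overlapped for both receptors, and a difference was not detectable from these counts. RefSeq places Pgpep1l and another locus over Igf1r and a pair of unnamed loci over Insr. The sources used here do not give the strand setting of the counting, so reads of such loci may be among a gene's counts, and a gene's own reads may be missing from them. Whether the low counts of these receptors reflect low RNA was not tested.

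The IRS adaptors link the receptors to PI3K. Irs1 had 3, 5 and 4 counts in Ctrl, 4, 3 and 3 in Model and 3, 3 and 1 in ChryM, and its ratio of Model to Ctrl was 1.02 (0.395 to 2.58). Its ChryM to Model ratio was 0.568 (0.184 to 1.65), and the groups overlapped. Irs2, its close relative, had 36, 38 and 52 counts in Ctrl, 31, 24 and 45 in Model and 43, 43 and 38 in ChryM. All 3 groups overlapped in CPM, at 54.4 ± 16.6 in Ctrl, 51.2 ± 10.5 in Model and 52.3 ± 2.05 in ChryM (SD, n = 3 each). Its log2 difference was -0.04 ± 0.20 in Model against Ctrl (adjusted p = 0.929, edgeR) and 0.01 ± 0.20 in ChryM against Model (adjusted p = 0.990, edgeR). The ratio of Model to Ctrl had an interval of 0.740 to 1.27, and that of ChryM to Model 0.767 to 1.32.

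Pik3r1 encodes p85 alpha, the main regulatory subunit of class I PI3K. It had 20, 11 and 12 counts in Ctrl, 20, 14 and 11 in Model and 15, 23 and 10 in ChryM, and all groups overlapped. Its CPM was 18.2 ± 5.65, 23.9 ± 8.73 and 19.9 ± 6.54 in Ctrl, Model and ChryM (SD, n = 3 each). The log2 difference of Model from Ctrl was 0.36 ± 0.32 (adjusted p = 0.551, edgeR; ratio interval 0.825 to 1.99). That of ChryM from Model was -0.21 ± 0.31 (adjusted p = 0.790, edgeR; ratio interval 0.564 to 1.33).

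Akt1 encodes the most widely expressed of the AKT kinases. It had 49, 48 and 35 counts in Ctrl, 38, 37 and 53 in Model and 36, 52 and 41 in ChryM. In CPM, which corrects for depth, the libraries were at 59.7, 57.9 and 49.5 in Ctrl, 61.9, 63.2 and 73.0 in Model and 45.4, 60.7 and 56.7 in ChryM. Every Model library lay above every Ctrl and ChryM library on this scale, but by little. The log2 difference was 0.25 ± 0.19 in Model against Ctrl (adjusted p = 0.458, edgeR; ratio interval 0.924 to 1.53) and -0.29 ± 0.19 in ChryM against Model (adjusted p = 0.417, edgeR; ratio interval 0.635 to 1.05). ChryM against Ctrl gave -0.04 ± 0.18 (adjusted p = 0.908, edgeR). Akt1 thus did not pass the test in any comparison.

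Levels of different genes were compared per gene length, as FPKM, the deposited unit in which a count is scaled to gene length and library total. In Ctrl, Igfbp2 was the highest member at 66.2 ± 5.20 FPKM, followed by Igf2 at 24.7 ± 3.81, Akt1 at 16.4 ± 2.05, Irs2 at 5.73 ± 1.56 and Pik3r1 at 3.02 ± 0.965 (SD, n = 3 each). No neighbours in this part of the order overlapped. Irs1, Igf1r, Insr and Igf1 followed at means of 0.530, 0.452, 0.407 and 0.0923 FPKM, and neighbours among these overlapped. In Model, Akt1 at 17.9 ± 1.77 FPKM and Igfbp2 at 15.02 ± 2.69 overlapped at the top. Irs2 at 5.02 ± 1.07 and Pik3r1 at 3.66 ± 1.32 overlapped next, and Igf2 came below them at 2.00 ± 0.266. In ChryM, Akt1 at 15.3 ± 2.33 FPKM and Igfbp2 at 11.8 ± 1.12 overlapped, Irs2 stood at 5.32 ± 0.187, and Pik3r1 at 3.18 ± 1.12 overlapped Igf2 at 2.61 ± 0.501. Below them, Irs1, Insr, Igf1r and Igf1 had means of 0.505, 0.187, 0.0921 and 0 FPKM in Model, and Irs1, Igf1r, Igf1 and Insr had 0.290, 0.278, 0.183 and 0.0712 in ChryM, with neighbours again overlapping. Igfbp2 and Igf2 led the order in Ctrl, and Igf2 had the lowest level of the 5 tested members in Model and ChryM.

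The rest of the pathway was described from a list of 64 genes, of which 63 were in the table (Irs4 was not analysed here) and 30 had enough counts to test. Ins1 and Ins2, which encode insulin, had 0 counts in all 9 libraries, as did Igfals, Insrr, Slc2a4 and Igf2bp1. In Model against Ctrl, 0 of the 30 rose and 3 fell, among them Gab1 and Pik3r2. In ChryM against Model, 2 rose (Pik3r2 and Rps6kb2) and 3 fell (Igfbp5, Igfbp7 and Bad). In ChryM against Ctrl, 1 rose (Rps6kb1) and 3 fell, among them Igfbp5 and Bad. Of all tested genes, 12.4%, 8.27% and 18.8% changed in the same comparisons. Whether the pathway differs from all genes was not tested. The median log2 fold change of the 30 was -0.04, -0.03 and -0.05 in these comparisons, against -0.02, 0.00 and -0.01 over all genes. Of the listed genes called, 4 of 5, 2 of 5 and 3 of 6, members included, had a test error below the counting error, so their p-values may be too small. The SE printed is the larger error.

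Among the other binding proteins, Igfbp5, which binds IGFs and extracellular matrix, had 45, 47 and 32 counts in Ctrl, 19, 16 and 32 in Model and 13, 18 and 14 in ChryM. Ctrl lay above Model and Model above ChryM in CPM without overlap, at 52.2 ± 6.14, 34.1 ± 8.80 and 18.9 ± 2.34 (SD, n = 3 each). The gap between Ctrl and Model was narrow, with 45.2 CPM in Ctrl 3 and 44.1 in Model 3. Igfbp5 fell by 1.46 ± 0.25 on the log2 scale in ChryM against Ctrl (adjusted p = 2.59e-07, edgeR) and by 0.87 ± 0.28 in ChryM against Model (adjusted p = 0.0278, edgeR). The log2 difference of Model from Ctrl was -0.59 ± 0.22 (adjusted p = 0.0554, edgeR). The call against Model was lost on leaving out Model 3 (adjusted p = 0.336), ChryM 1 (0.125), ChryM 2 (0.0536) or ChryM 3 (0.0621), with no count filter (0.0731) and with limma on log2(FPKM + 1) (0.133). The Model difference from Ctrl was called with library totals (0.0169) and without Ctrl 3 (0.0399) or Model 3 (0.0263). Igfbp7, a vascular matrix protein that binds IGFs weakly, had 78, 79 and 84 counts in Ctrl, 72, 70 and 91 in Model and 63, 70 and 56 in ChryM. All 3 ChryM libraries were below the other 6 in CPM, with means of 103 ± 13.6 in Ctrl, 121 ± 4.09 in Model and 79.5 ± 2.07 in ChryM (SD, n = 3 each). Igfbp7 fell by 0.60 ± 0.15 on the log2 scale in ChryM against Model (adjusted p = 0.00222, edgeR), and its difference of ChryM from Ctrl was -0.36 ± 0.15 (adjusted p = 0.0682, edgeR). The latter difference was called with library totals (0.0276) and with limma on log2(FPKM + 1) (0.0155). The 5 endothelial markers in the table, whose sums are given above, were lowest in ChryM at 23.3 to 33.5 CPM, and their part in the Igfbp5 and Igfbp7 values was not tested. RefSeq places Polr2b and other loci over Igfbp7. Igfbp4 had 34, 20 and 21 counts in the 3 groups in the order Ctrl, Model and ChryM, and Igfbp6 had 12, 17 and 8; Igfbp4 did not pass the test and Igfbp6 was not tested.

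**Figure D3:**
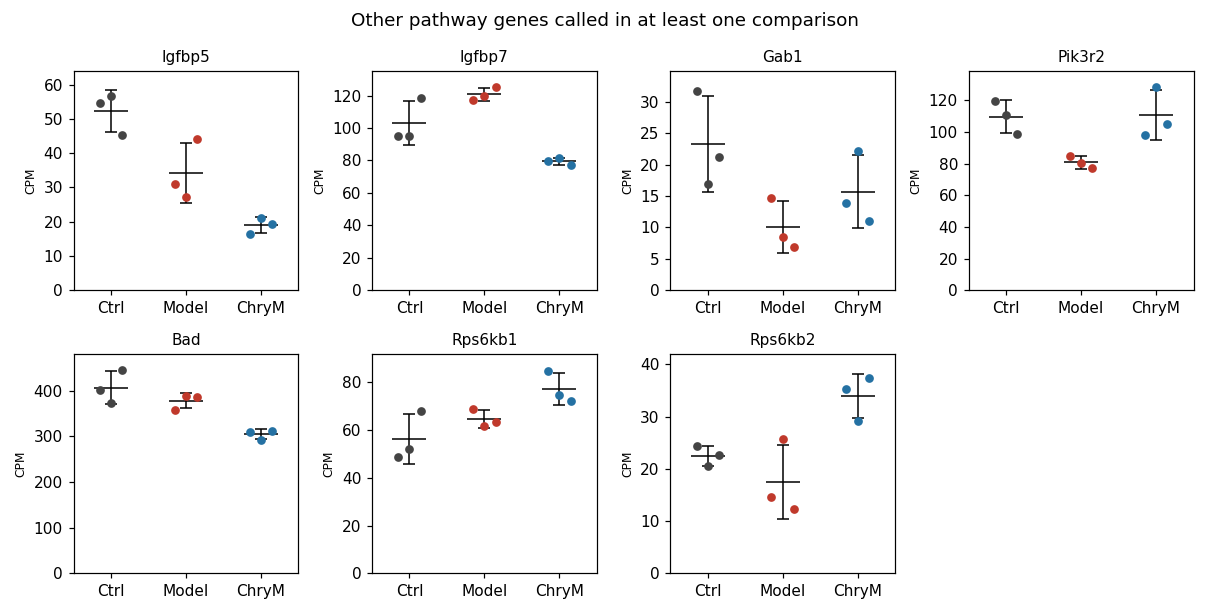
CPM in each library (points; replicates 1 to 3 from left to right) of 7 other pathway genes that passed the test in at least 1 comparison, with group mean (long bar) and SD (whiskers). Each panel has its own axis from 0. The Igfbp5 points of the 3 groups do not overlap, but Ctrl and Model nearly meet. Pik3r2 is lowest in Model, and Bad is lowest in ChryM.

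Between receptor and AKT, Gab1 and Pik3r2 fell in Model against Ctrl. Gab1, a docking adaptor that recruits PI3K, had 26, 14 and 15 counts in Ctrl, 9, 5 and 5 in Model and 11, 19 and 8 in ChryM. It fell by 1.23 ± 0.38 on the log2 scale (adjusted p = 0.0134, edgeR), from 23.3 ± 7.60 to 10.03 ± 4.10 CPM (SD, n = 3 each). That call was lost without Ctrl 1 (adjusted p = 0.193), Model 2 (0.0557) or Model 3 (0.127), all edgeR. Pik3r2, the p85 beta subunit of PI3K, had 98, 92 and 70 counts in Ctrl, 52, 47 and 56 in Model and 78, 110 and 76 in ChryM. In CPM all 3 Model libraries were below the other 6, at means of 110 ± 10.3, 80.7 ± 3.85 and 111 ± 15.7 in Ctrl, Model and ChryM (SD, n = 3 each). Pik3r2 fell by 0.45 ± 0.15 on the log2 scale in Model against Ctrl (adjusted p = 0.0317, edgeR) and rose by 0.46 ± 0.15 in ChryM against Model (adjusted p = 0.0344, edgeR). The fall was lost with DESeq2 (adjusted p = 0.120), with no count filter (0.0955) and without Ctrl 1 (0.162), Ctrl 2 (0.0797), Model 2 (0.0815) or Model 3 (0.140). The rise was lost with DESeq2 (0.140), no count filter (0.0731) and limma on log2(FPKM + 1) (0.0793), and without Model 1 (0.0593), Model 2 (0.0935), Model 3 (0.147) or ChryM 2 (0.308). The 11 oligodendrocyte markers summed to 15591 to 16748 CPM in Ctrl, 8517 to 9443 in Model and 15085 to 16494 in ChryM. The sum does not speak for each marker. In ChryM against Ctrl, 6 of the 11 were called lower, 1 higher and 4 not called (edgeR), with a median log2 fold change of -0.35. The part of these markers in the values of Gab1 and Pik3r2 was not tested.

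Downstream of AKT, Bad, a proapoptotic protein that AKT phosphorylates, was counted most often of these, at 329, 310 and 315 counts in Ctrl, 220, 227 and 281 in Model and 246, 250 and 226 in ChryM. All ChryM libraries were lowest in CPM, at a mean of 305 ± 11.6 against 407 ± 36.1 in Ctrl and 378 ± 16.6 in Model (SD, n = 3 each). Bad fell by 0.41 ± 0.09 on the log2 scale in ChryM against Ctrl (adjusted p = 0.000136, edgeR) and by 0.31 ± 0.09 against Model (adjusted p = 0.0168, edgeR). The call against Model was lost without Model 2 (adjusted p = 0.0660), Model 3 (0.0969) or ChryM 2 (0.114), with no count filter (0.0682) and with limma at either pseudocount (0.0979 on log2(FPKM + 0.1)). Rps6kb1 and Rps6kb2 encode the S6 kinases, which act below the mTOR complex. Rps6kb1 had 40, 43 and 48 counts in Ctrl, 42, 36 and 46 in Model and 67, 64 and 52 in ChryM. It rose by 0.47 ± 0.17 on the log2 scale in ChryM against Ctrl (adjusted p = 0.0387, edgeR), a call lost with DESeq2 (0.161), with library totals (0.0910), with no count filter (0.0574), with limma on log2(FPKM + 1) (0.197) and without Ctrl 1 (0.191), Ctrl 2 (0.140), ChryM 1 (0.162), ChryM 2 (0.0635) or ChryM 3 (0.0561). Rps6kb2 had 20, 17 and 16 counts in Ctrl, 9, 15 and 9 in Model and 28, 25 and 27 in ChryM. It rose by 0.97 ± 0.30 on the log2 scale in ChryM against Model (adjusted p = 0.0183, edgeR), a call lost without Model 1 (0.0929), Model 3 (0.188), ChryM 1 (0.0673) or ChryM 3 (0.0730).

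Other fixed points of the pathway did not pass the test in any comparison. Igf2r, the receptor that clears IGF2, had 84, 51 and 65 counts in Ctrl, Model and ChryM (adjusted p = 0.331 for Model against Ctrl, edgeR). Akt2, the AKT kinase of insulin-responsive tissue, had 36, 29 and 32, and Mtor, the kinase of the mTOR complexes, had 60, 65 and 58. Too few counts for a test were found (in the same order of groups) for Pik3ca, a catalytic subunit of PI3K (27, 19 and 28). The same held for Grb10, an inhibitory adaptor (15, 9 and 15), and Gsk3b, a kinase inhibited by AKT (6, 4 and 4). Foxo1, a transcription factor excluded from the nucleus by AKT, had 3, 2 and 2 counts, and Foxo3, of the same family, had 4, 2 and 2. When all genes were fitted without a minimum count, none of the named genes left untested here passed edgeR's test, with adjusted p of at least 0.363.

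**Figure D4:**
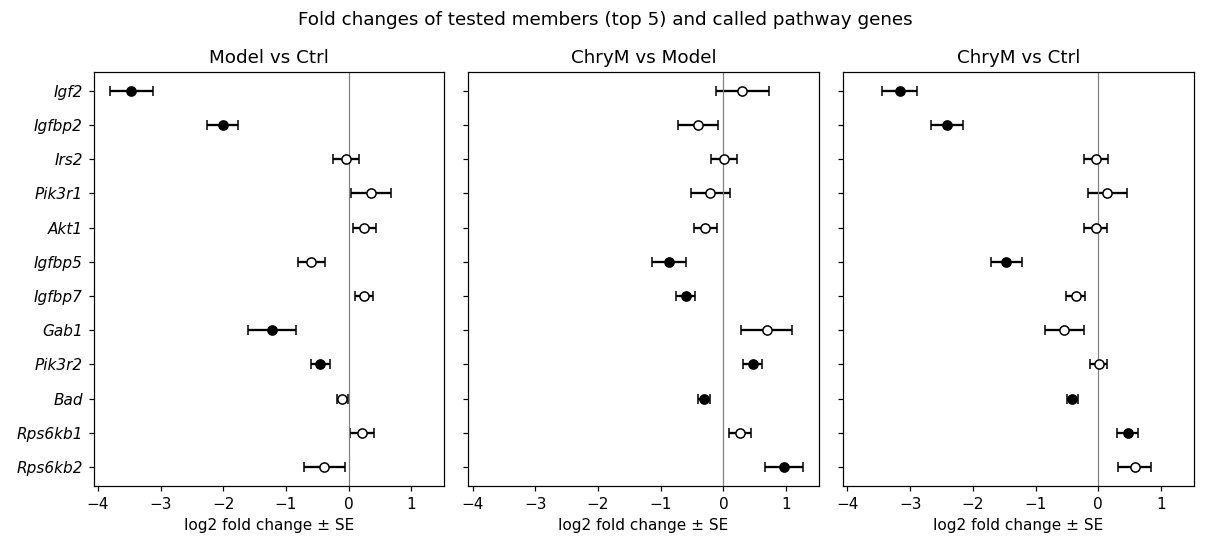
Log2 fold changes (points) with SE (whiskers) of the 5 tested members, on top, and 7 other pathway genes in the 3 comparisons; filled points passed the test at an adjusted p under 0.05 (edgeR) and open points did not. The Igf2 and Igfbp2 points lie far to the left in both comparisons with Ctrl and near 0 in ChryM against Model, at 0.30 and -0.41.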

How the data were processed

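RNA of 9 libraries, 3 per group, was made into poly(A), dUTP strand-specific libraries, per the labels' protocols. The authors deposited whole-number read counts per gene, and FPKM values with gene lengths in a second table, per the file headers; the deposited FPKM equalled count over length and library total in 100% of values (relative tolerance 1e-09). Per the submitters' processing notes, HISAT2 and DESeq2 were used, with no version named. What counted the reads, with which strand setting, on which build and annotation, is not given in the sources used here, so no gene coordinates are printed. IDs without a gene name, 4367 in number, held 21.99% to 24.58% of counts and stayed in the fit.

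Genes with at least 12.9 CPM (10 counts in the median library) in 3 libraries and 15 counts in all were kept with filterByExpr and scaled by TMM. One fit of all 9 libraries with a coefficient per group (edgeR 4.0.16, glmQLFit robust, glmQLFTest, R 4.3.3; 6 residual degrees of freedom; biological coefficient of variation 5.5%) tested 3 comparisons with two-sided p-values, adjusted by Benjamini-Hochberg over 7073 genes and called under 0.05. The code was tested on simulated data. An exact permutation test of 3 against 3 libraries cannot go below p = 0.1 and was not used. CPM of single genes are TMM-scaled; marker sums are CPM of the library total. No libraries held identical values. Alternatives were library totals, DESeq2 1.42.0, limma 3.58.1 on log2 FPKM with pseudocounts of 1 and 0.1, no or a stricter count filter, only the groups compared, a replicate block and leaving out each library.

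The members and lists were chosen with earlier results of these data known. Named were all members, the up to 12 called pathway genes with the smallest p in each comparison, fixed pathway nodes, the 6 genes most like each called member, and marker genes. RefSeq GRCr8 gave upstream sequences and overlaps. Some listed pathway genes are not reported here.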

Additional observations from a re-analysis of the deposited data

How the results depend on the processing

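Igf2 and Igfbp2 kept their calls and direction against Ctrl in all 19 alternatives of each comparison. Log2 values ran from -3.59 to -3.09 for Igf2 and -2.15 to -1.89 for Igfbp2 in Model, and from -3.34 to -2.83 and -2.49 to -2.35 in ChryM. Neither was called in ChryM against Model in any alternative. Genes changed in Model against Ctrl, ChryM against Model and ChryM against Ctrl numbered 423, 298 and 631 with DESeq2, 553, 352 and 793 with limma on log2(FPKM + 1) and 521, 351 and 772 on log2(FPKM + 0.1). Leaving out 1 library gave 615 to 886, 390 to 619 and 971 to 1349. Members changed stayed at 2, 0 and 2. Pathway genes changed numbered 0, 2 and 2 with DESeq2, which gave no adjusted p for Gab1 in Model against Ctrl nor for Igfbp5 and Rps6kb2 in ChryM against Model, and 2 in ChryM against Model with no count filter and with limma at either pseudocount. Without 1 library they numbered 1 (without Ctrl 1) to 4 (without Ctrl 3), 1 (without Model 3) to 5, and 2 (without Ctrl 2) to 4. Where not stated otherwise, the cause was not tested.

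Over 51 results on single genes and 943 alternatives, 856 kept side and direction, 50 lost a call, 6 gained one and 31 changed sign. Sign changes concerned uncalled values. Akt2 in Model against Ctrl was 0.00167 with no count filter and 0.00390 with the replicate block. Pik3r2 in ChryM against Ctrl was -0.0532 with library totals, -0.00141 with only the groups compared, and -0.0507 and -0.0521 with limma at pseudocounts of 1 and 0.1. Without 1 library each, ranges crossing 0 were -0.13 to 0.0741 for Akt1 in ChryM against Ctrl, -0.44 to 0.0531 for Akt2 in ChryM against Model, -0.24 to 0.27 for Akt2 in Model against Ctrl, -0.18 to 0.21 for Igf2r in ChryM against Model, -0.40 to 0.0997 for Igfbp4 in ChryM against Model, -0.17 to 0.22 for Irs2 in ChryM against Ctrl, -0.12 to 0.19 for Irs2 in ChryM against Model, -0.22 to 0.21 for Irs2 in Model against Ctrl, -0.36 to 0.0999 for Mtor in ChryM against Ctrl, -0.14 to 0.43 for Pik3r1 in ChryM against Ctrl, -0.50 to 0.0819 for Pik3r1 in ChryM against Model and -0.11 to 0.0950 for Pik3r2 in ChryM against Ctrl. Same-numbered libraries deviated together in no pair (r from -0.03 to 0.04 over 9 pairs, and 7 of 18 best matches had the same number). No pairing by replicate number was thus seen. At counts this low the deviations may be mostly counting error, so this check cannot exclude a pairing. With a replicate block, genes changed numbered 855, 586 and 1317, and no member or pathway call changed. Few counts limit Igf1, Igf1r, Insr and Irs1 most; whether these reflect depth, low RNA or the strand setting of the counting was not tested.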

Other observations

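Genes whose profile over the 9 libraries was most like that of Igf2 or Igfbp2 were found by Pearson's r of log2 CPM (prior count 2), as a description. The libraries share the group structure, so any gene separating Ctrl from the rest scores high. For Igf2 these were Enpp2 (autotaxin, of choroid plexus and oligodendrocytes; r = 0.99), LOC100134871 (0.99), Cdkn1c (a cyclin-dependent kinase inhibitor; 0.99), Dlg4 (the postsynaptic scaffold PSD-95; 0.98), Mdk (the growth factor midkine; 0.98) and Clic6 (a chloride channel protein of choroid plexus; 0.98). Enpp2 had 184 ± 10.3, 32.2 ± 8.02 and 38.2 ± 4.81 CPM in Ctrl, Model and ChryM (SD, n = 3 each), and Cdkn1c had 34.2 ± 4.19, 4.15 ± 0.737 and 5.08 ± 0.437. Cdkn1c is imprinted and lies in the same chromosomal cluster as Igf2 in mammals. Whether this has a part in their likeness was not tested. For Igfbp2 they were Mfrp (0.98), Canx (the chaperone calnexin; 0.98), Ddx5 (an RNA helicase; 0.98), Anks1b (0.98), Cplx2 (complexin 2, of the synapse; 0.97) and Cdkn1c (0.97). Mfrp had 59 counts in Ctrl, 2 in Model and 0 in ChryM. Cdkn1c, Clic6 and Mfrp reached the minimum for testing in Ctrl libraries alone. Their high r was thus favoured by that minimum and is no support for a link to Igf2 or Igfbp2.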
